A study of Mus musculus with 24 samples.

Results

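The 8 claudins Cldn1, Cldn2, Cldn3, Cldn5, Cldn9, Cldn10, Cldn11 and Cldn12 were taken by symbol from the gene counts of mouse hippocampus, in which 49568 gene symbols were counted, and all 8 were found. Claudins are membrane proteins that span the membrane several times and polymerize into the strands of tight junctions, where some members seal the space between neighbouring cells and others form pores for small ions and water. In the brain they are known from the barriers, with sealing strands between the endothelial cells of blood vessels, a strand network with sealing and pore-forming claudins in the epithelium of the choroid plexus, the tissue that secretes cerebrospinal fluid, and a single claudin in the myelin sheath.

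The study compared wild-type (WT) mice with mice homozygous for a kinase-dead allele of MSK1 (KD), a nuclear kinase activated by growth factor signaling, each in standard housing (SH) or in environmental enrichment (EE). The groups were WT SH, WT EE, KD SH and KD EE, with whole hippocampi of mice of 12 weeks by the sample labels (3 months by the series text), all male and on a C57-Bl/6 background (C57-Bl/6J in the study's methods). The KD mice carry a point mutation in the endogenous gene that inactivates the N-terminal kinase domain in every cell, and the EE mice were reared in large cages with a running wheel and toys that were moved and renewed. Poly-A RNA was sequenced as 24 libraries, 6 per group, of which 22 are described here (6 WT SH, 5 WT EE, 6 KD SH and 5 KD EE) and libraries 33B (WT EE) and 34B (KD EE) are left out. The study removed both of these because they failed its quality control.

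The 22 libraries held 8911999 to 56752074 counts on genes (median 30265877), and 3 counts, the floor used for detection, stood for 0.0529 to 0.337 CPM (gene counts relative to library size, scaled by the trimmed mean of M-values method). The labels do not say that each library came from a different mouse, litter or cage, so p-values measure the spread between these libraries, which may be technical. The study also removed 31B and 35A from WT EE, 12 from WT SH, 2 from KD SH and 9 from KD EE because they correlated poorly with their group, and tested the other 17. Since that removal used the expression values themselves, results over the 17 libraries are given beside those over the 22 and not in their place. Rps6ka5, the gene of MSK1, lay between 19.3 and 28.2 CPM in the WT libraries and between 21.0 and 29.5 CPM in the KD libraries, and because the allele is a point mutation its level does not check the labels. The hippocampal neuron markers Snap25, Rbfox3 and Camk2a were present in every library, with Camk2a at 3750 CPM or more.

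The promoters of Cldn1, Cldn2 and Cldn3, whose levels moved together across the libraries, are shown with those of Cldn5 and Cldn11, whose levels did not move with them. Each is the 250 bases before the RefSeq start of the gene, 5′ to 3′ on the strand of the gene, on GRCm38.p6. The positions are chr16:26371840-26372089 on the minus strand for Cldn1, chrX:139800558-139800807 on the plus strand for Cldn2, chr5:134985964-134986213 on the plus strand for Cldn3, chr16:18776597-18776846 on the plus strand for Cldn5 and chr3:31149670-31149919 on the plus strand for Cldn11. Capitals mark matches to 5 short motifs searched on both strands, and no match overlapped another. The motifs were the letters TATAAA for the box of that name near many starts, the letters CCAAT for the box named after them, the letters CCGCCC for a GC box, the letters GGATTA for the core bound by OTX factors, and the letters TGTTTA for a core bound by forkhead factors.
Cldn1: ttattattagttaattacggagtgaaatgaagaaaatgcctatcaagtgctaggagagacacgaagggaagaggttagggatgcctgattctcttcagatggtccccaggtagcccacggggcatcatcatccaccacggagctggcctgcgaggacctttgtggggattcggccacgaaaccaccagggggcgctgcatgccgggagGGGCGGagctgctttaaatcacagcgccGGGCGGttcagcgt
Cldn2: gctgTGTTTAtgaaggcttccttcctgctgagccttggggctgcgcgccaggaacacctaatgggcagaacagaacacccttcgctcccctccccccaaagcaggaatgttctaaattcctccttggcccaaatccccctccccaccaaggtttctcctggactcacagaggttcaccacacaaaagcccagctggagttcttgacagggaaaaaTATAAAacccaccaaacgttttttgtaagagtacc
Cldn3: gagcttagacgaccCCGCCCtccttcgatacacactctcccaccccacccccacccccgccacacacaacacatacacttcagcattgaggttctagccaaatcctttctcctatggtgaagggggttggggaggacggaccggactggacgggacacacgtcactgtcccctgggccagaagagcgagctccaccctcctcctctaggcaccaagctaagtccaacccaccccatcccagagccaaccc
Cldn5: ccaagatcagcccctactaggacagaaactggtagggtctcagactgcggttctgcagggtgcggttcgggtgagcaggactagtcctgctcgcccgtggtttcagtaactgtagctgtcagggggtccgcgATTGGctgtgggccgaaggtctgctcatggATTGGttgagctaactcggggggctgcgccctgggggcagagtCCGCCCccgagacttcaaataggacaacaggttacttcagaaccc
Cldn11: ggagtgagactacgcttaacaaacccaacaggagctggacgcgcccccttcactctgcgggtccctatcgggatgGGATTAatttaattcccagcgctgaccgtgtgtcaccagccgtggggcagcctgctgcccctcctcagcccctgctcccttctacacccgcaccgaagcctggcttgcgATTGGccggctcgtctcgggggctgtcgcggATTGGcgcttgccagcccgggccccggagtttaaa

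Cldn2 alone of these 5 held a TATA box, which began 35 bases before the start, and 12.4% of the 32851 promoters in the table hold one. It also held the forkhead core, 246 bases before the start (12.0% of all promoters), and no GC box. Cldn1 held 2 GC boxes, 42 and 14 bases before the start, and Cldn3 held 1 at 236 bases (32.7% of all promoters). Cldn5 held 2 CCAAT boxes, at 118 and 88 bases (33.8% of all promoters), and a GC box at 45 bases. Cldn11 held 2 CCAAT boxes, at 66 and 35 bases, and the OTX core at 175 bases (6.25% of all promoters). Of the 3 claudins that moved together, Cldn1 and Cldn3 both held a GC box and Cldn2 did not, so no motif of the 5 was in all 3 windows. GC content was 55.6% in Cldn1, 52.0% in Cldn2 and 60.8% in Cldn3 against a median of 52.4% over all promoters. It was 59.6% in Cldn5 and 63.6% in Cldn11, so it did not set the 3 apart. Cldn10 has 2 promoters in the table and Cldn12 has 3, which the gene counts do not separate, and Cldn9 has no entry.

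The levels of the 8 claudins, as CPM per kb of exon, spanned 3 orders of size and at the median fell into a high and a low group. Cldn11, a claudin of myelin that is also named oligodendrocyte-specific protein, was the highest, with a median of 61.2 CPM per kb over the 22 libraries (range 53.5 to 83.4). Cldn5, the main claudin of brain endothelium, followed at 22.1 CPM per kb (range 16.8 to 29.0). Cldn10, which forms ion-selective pores in several epithelia, had a median of 11.4 CPM per kb (range 8.28 to 13.8), and Cldn12, a claudin without the usual C-terminal PDZ-binding motif, one of 8.32 CPM per kb (range 7.39 to 11.1). Each of these 4 lay above the next by median (Cldn1 after Cldn12) in 22 of 22 libraries, although the ranges of Cldn10 and Cldn12 overlapped.

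The other 4 lay far lower at the median. Cldn1, a sealing claudin of many epithelia, had a median of 1.06 CPM per kb (range 0.598 to 3.45). Cldn2, which forms pores for cations and water, had a median of 0.469 CPM per kb but the widest range, 0.0895 to 10.7. In libraries 33A (WT EE) and 36A (KD EE) it lay above Cldn12, at 8.93 and 10.7 against 7.39 and 8.79 CPM per kb. Cldn3, a sealing claudin of epithelia, had a median of 0.459 CPM per kb (range 0.0431 to 1.25). The order within this low group was not fixed, since Cldn1 lay above Cldn2 in 13 of 22 libraries and Cldn2 above Cldn3 in 14 of 22. Cldn9, best known from the sensory epithelium of the inner ear, had a median of 0.0493 CPM per kb and lay below Cldn3 in 22 of 22 libraries.

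Counting error limits Cldn9 and, in places, Cldn3. Cldn9 was at or under the floor of 3 counts in 13 of the 22 libraries, at 0 in 5 of them, and held at most 31 counts, and Cldn3 was at or under the floor in 2 libraries and held at most 59 counts. The lowest counts were 9 for Cldn2, 26 for Cldn1 and 219 or more for the 4 highest claudins. On GRCm38 the genes lie at chr16:26356642-26371841 (Cldn1), chrX:139800828-139811386 (Cldn2), chr5:134986214-134987472 (Cldn3), chr16:18776847-18778262 (Cldn5), chr17:23682584-23684026 (Cldn9), chr14:118787908-118875489 (Cldn10), chr3:31149920-31164324 (Cldn11) and chr5:5489537-5514958 (Cldn12). Cldn3, Cldn5 and Cldn9 are each annotated as 1 block of exon. The exon of Cldn3 shares 40 bases, 3.18% of its length, with Wbscr25 on the other strand, and the counting ignored strand, so reads there cannot be assigned to either gene. No annotated exon of another gene overlaps those of the other 7 claudins.

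Cldn2 spread 120-fold between its lowest and highest library (coefficient of variation 127%), the most of the 7 claudins with a count in every library. The coefficient of variation of Cldn9, which was at 0 in some libraries, was 129%. In WT SH the level of Cldn2 was 0.674 CPM at the lowest, 1.12 CPM at the median and 10.8 CPM at the highest. The 5 WT EE libraries held 27.6, 21.2, 0.298, 29.7 and 0.776 CPM (16, 17, 31B, 33A and 35A). In KD SH its level was 0.619 CPM at the lowest, 1.02 CPM at the median and 15.2 CPM at the highest. The 5 KD EE libraries held 4.33, 15.5, 1.34, 19.7 and 35.6 CPM (7, 8, 9, 32A and 36A). Most SH libraries were low and most EE libraries high, but libraries 12 (WT SH) and 2 (KD SH) lay among the high ones and libraries 31B, 35A and 9 of the EE mice among the low ones, so the groups overlapped. Of the 10 EE libraries 6 lay above every SH library.

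Over both genotypes Cldn2 was 2.30 ± 0.67 (SE) higher on the log2 scale in EE, which missed the threshold (adjusted p = 0.0907, edgeR quasi-likelihood test over 18482 genes). The difference was 2.43 ± 0.97 in WT and 2.17 ± 0.93 in KD, with adjusted p of 0.462 and 0.491. Over the 17 libraries it was 4.18 ± 0.33 (adjusted p = 8.99e-09), with 4.19 ± 0.47 in WT and 4.17 ± 0.46 in KD. There the 7 EE libraries began at 4.33 CPM (library 7) and the 10 SH libraries ended at 4.09 CPM (library 11), so these groups stood apart by a narrow gap. The call was also made over the 22 libraries less 1 when library 2, 12, 31B or 35A was left out, with log2 differences of up to 3.17.

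Cldn1 moved with Cldn2 over a smaller range. In WT SH it was 3.14 CPM at the lowest, 5.12 CPM at the median and 6.38 CPM at the highest, and in KD SH 3.06, 4.69 and 10.4 CPM. The WT EE libraries held 13.6, 10.2, 4.07, 13.9 and 3.9 CPM in the order above, and the KD EE libraries 7.19, 10.4, 2.89, 11.4 and 16.7 CPM. Library 2 was again the highest of the SH libraries, and 31B, 35A and 9 were the 3 lowest of the EE libraries. The housing difference over both genotypes was 0.93 ± 0.26 on the log2 scale over the 22 libraries (adjusted p = 0.0762) and 1.48 ± 0.15 over the 17 (adjusted p = 2.86e-07), where all 7 EE libraries lay above every SH library. It was called without library 2, 9, 31B or 35A, with log2 differences of 1.1 at most.

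Cldn3 and Cldn9 followed much the same libraries at low levels, which for Cldn9 were near the floor. In WT SH, though, both were highest in library 11 (1.09 and 0.261 CPM) and not in library 12 (0.751 and 0.125 CPM). Cldn3 was 0.473, 0.619 and 1.09 CPM at the lowest, median and highest in WT SH, and 0.0543, 0.324 and 1.05 CPM in KD SH. In the EE libraries it was 1.45, 1.56, 0.562, 1.3 and 0.343 CPM in WT and 0.387, 0.841, 0.334, 0.971 and 1.57 CPM in KD. The groups overlapped over the 22 and over the 17 libraries. The log2 difference over both genotypes was 0.84 ± 0.32 over the 22 libraries (adjusted p = 0.181) and 1.45 ± 0.25 over the 17 (adjusted p = 0.000439), and it was called over the 22 less 1 only without library 2, at 1.13. Within genotypes of the 17, it was 1.77 ± 0.36 in KD (adjusted p = 0.00745) and 1.14 ± 0.35 in WT (adjusted p = 0.0746), and the interaction, −0.63 ± 0.51, gave an adjusted p of 0.884.

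Cldn9 held 0.0508 CPM at the median of WT SH and 0.0412 CPM at that of KD SH. Its highest SH libraries were library 11 in WT (0.261 CPM, 6 counts) and library 2 in KD (0.65 CPM, 31 counts). In the EE libraries it was 0.843, 0.361, 0.0, 0.686 and 0.0542 CPM in WT and 0.0773, 0.388, 0.0, 0.576 and 0.971 CPM in KD, where 0.0542 and 0.0773 CPM stand for 3 and 1 counts. The fitted log2 difference was 2.00 ± 0.67 over the 22 libraries (adjusted p = 0.130) and 3.55 ± 0.50 over the 17 (adjusted p = 3.85e-05), and with so many libraries at 3 counts or fewer its size is poorly fixed. It was called over the 22 less 1 only without library 2, at 2.99.

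**Figure D1:**
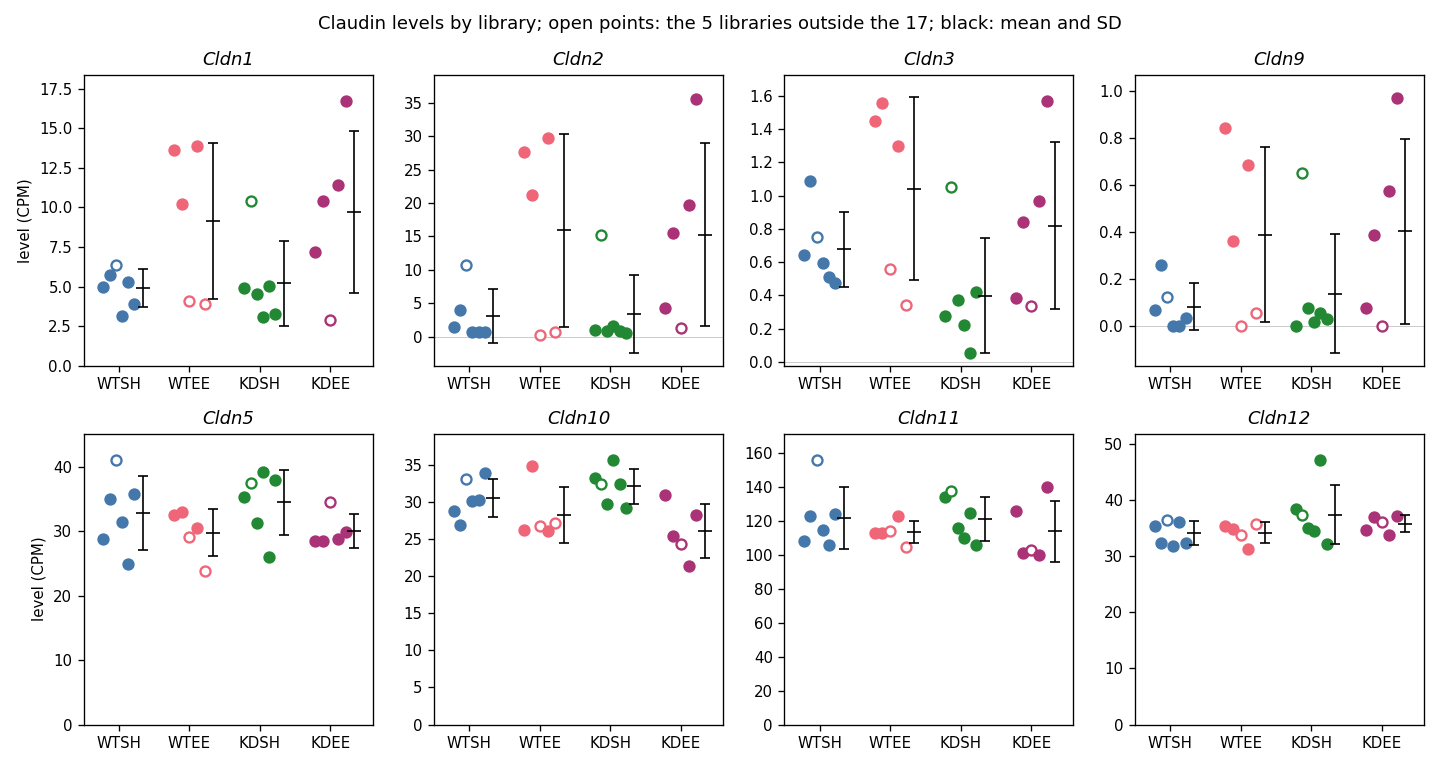
Level of each claudin in CPM (y axis, from 0) in the 22 libraries by group, with open points for the 5 libraries outside the 17 and black bars for the mean and SD of all libraries of a group. In the upper row the open points of the EE groups lie low and those of the SH groups mostly lie high (Cldn2 at 0.298 and 0.776 CPM in WT EE, and at 15.2 CPM in KD SH), whereas in the lower row the groups lie over each other.

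The 4 claudins of the upper row took a share of the summed CPM per kb of all 8 that moved with these libraries. Cldn1, Cldn2, Cldn3 and Cldn9 together made up 1.27% to 3.77% of it in WT SH (median 1.9%) and 1.18% to 6.17% in KD SH (median 1.27%). In WT EE they made up 1.36% to 11.3% (median 8.63%) and in KD EE 1.28% to 12.2% (median 7.73%). The rest was Cldn5, Cldn10, Cldn11 and Cldn12 in every library.

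The other 4 claudins varied little. Cldn5 was 25.0, 33.2 and 41.1 CPM at the lowest, median and highest in WT SH and 26.0, 36.4 and 39.3 CPM in KD SH. It was 32.5, 33, 29.2, 30.5 and 23.8 CPM in WT EE and 28.5, 28.5, 34.6, 28.8 and 29.9 CPM in KD EE. The ranges overlapped between housings in both genotypes. The log2 difference over both genotypes was −0.18 ± 0.08 over the 22 libraries (adjusted p = 0.272) and −0.10 ± 0.08 over the 17 (adjusted p = 0.571).

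Cldn10 was 27.0, 30.3 and 34 CPM at the lowest, median and highest in WT SH and 29.2, 32.5 and 35.7 CPM in KD SH. It was 26.3, 34.9, 26.8, 26.1 and 27.2 CPM in WT EE and 31, 25.4, 24.4, 21.4 and 28.3 CPM in KD EE. In KD 4 of the 5 EE libraries lay below every SH library, and in WT library 17 was the highest of all 11. The log2 difference over both genotypes was −0.21 ± 0.06 over the 22 libraries (adjusted p = 0.101), with −0.30 ± 0.09 in KD (adjusted p = 0.453) and −0.12 ± 0.09 in WT (adjusted p = 0.790). DESeq2 gave it an adjusted p of 0.0485 over both genotypes, at a log2 difference of −0.21 that is smaller than the 0.38 asked of a call.

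Cldn11 was 106, 119 and 156 CPM at the lowest, median and highest in WT SH and 106, 121 and 138 CPM in KD SH. It was 113, 113, 114, 123 and 105 CPM in WT EE and 126, 101, 103, 100 and 140 CPM in KD EE, within a 1.56-fold range over all 22. Its log2 difference over both genotypes was −0.10 ± 0.07 (adjusted p = 0.504). Cldn12 had the smallest coefficient of variation, 9.23%, and lay between 31.2 and 37.2 CPM in the EE libraries and between 31.8 and 47.1 CPM in the SH libraries, with library 5 (KD SH) the highest. Its log2 difference was −0.03 ± 0.05 (adjusted p = 0.842).

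In counts of calls, a call asked for an adjusted p of 0.05 or less and a log2 difference of at least 0.38 in either direction. Over the 22 libraries edgeR called 0 of the 8 claudins in EE against SH over both genotypes, where 0.146% of all 18482 genes tested were called, and 0 of 8 within WT and within KD, where 0.0% of all genes were. DESeq2 also called 0 of 8 in these comparisons, with 1.14% of all genes over both genotypes, 0.108% in WT and 0.0162% in KD, but gave Cldn9 no adjusted p over both genotypes or in WT, so that 7 claudins could be called there. At an unadjusted p under 0.05, 6 of 8 passed over both genotypes (16.1% of all genes), with 4 higher in EE (Cldn1, Cldn2, Cldn3, Cldn9) and 2 lower (Cldn5, Cldn10). In WT 3 of 8 passed (8.65% of all genes) and in KD 4 of 8 (9.63%). The median log2 difference of the 8 was 0.31 in WT, 0.45 in KD and 0.41 over both genotypes, beside 0.00619, 0.00278 and 0.00465 for all genes. These medians fall in the gap between the 4 low and the 4 abundant claudins, and in fits of only the groups compared, where Cldn9 was filtered out, the median of 7 was 0.01 in WT and −0.06 in KD.

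Over the 17 libraries, 4 of 8 were called over both genotypes (3.85% of 18701 genes), 3 of 8 in WT (3.55%) and 4 of 8 in KD (1.74%), all higher in EE. They were Cldn1, Cldn2, Cldn3 and Cldn9, without Cldn3 in WT, and the 4 abundant claudins were called in none of the 3 comparisons.

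Genotype showed no called difference. Over the 22 libraries 0 of 8 were called by edgeR in WT SH against KD SH, in WT EE against KD EE and in the interaction of genotype and housing (0.0% of all genes in each), and 0 of 8 had an unadjusted p under 0.05, against 5.76%, 2.61% and 2.04% of all genes. DESeq2 called 0 of 8 as well, with 0.0108%, 0.0% and 0.0% of all genes. With the 17 libraries it was again 0 of 8 in each (0.0%, 0.00535% and 0.0% of all genes). There 1 of 8, Cldn3, had an unadjusted p under 0.05 in WT SH against KD SH, at 1.16 ± 0.36 on the log2 scale (adjusted p = 0.881), as it did over the 22 libraries with a score of choroid plexus markers in the fit, at 0.79 ± 0.28 (adjusted p = 0.710). The interaction, the housing difference in WT minus that in KD, was 0.27 ± 1.33 for Cldn2, −0.05 ± 0.51 for Cldn1, −0.46 ± 0.64 for Cldn3 and 0.77 ± 1.36 for Cldn9 on the log2 scale, and for the 4 abundant claudins it lay between −0.01 and 0.19. The standard errors of the first 4 leave room for differences of more than 1.3-fold between genotypes in either direction. For WT SH against KD SH, the difference of Cldn2 was −0.27 ± 0.95 over the 22 libraries and 1.47 ± 0.98 without library 2, and neither passed.

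**Figure D2:**
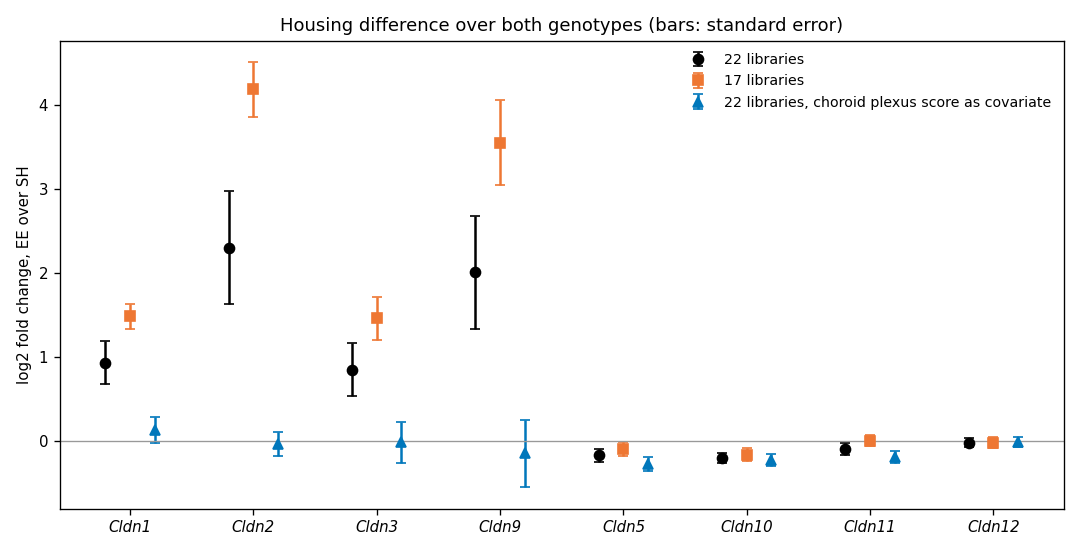
Log2 fold change of EE over SH over both genotypes (y axis) for each claudin, with its standard error, over the 22 libraries (black), over the 17 (orange) and over the 22 with the choroid plexus score as a covariate (blue). Cldn1, Cldn2, Cldn3 and Cldn9 lie at 0.84 to 2.30 over the 22 libraries, at 1.45 to 4.18 over the 17 and between −0.15 and 0.13 with the score in the fit.

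Markers of the choroid plexus epithelium moved with the same libraries. This tissue lies beside the hippocampus in the lateral ventricle, and in bulk tissue more cells of a type and more RNA per cell cannot be told apart. Its list held 15 genes and no claudin, led by Ttr, the transthyretin that this epithelium secretes, Folr1, a folate receptor, and Kcnj13, a potassium channel. All 15 were tested, and none was at 0 in any library. Their summed level was 75.1 to 1960 CPM in WT SH (median 90.9), 79.5 to 5580 CPM in WT EE (median 4300), 54.3 to 3070 CPM in KD SH (median 153) and 234 to 6000 CPM in KD EE (median 2350). Ttr was 16.8 CPM in its lowest library (KD SH) and 5130 CPM in its highest (KD EE). All 15 markers were higher in EE over the 22 libraries in WT and in KD, with medians of 2.47 and 1.95 on the log2 scale and 0 called, and all 15 were called over the 17 libraries in both, at medians of 4.1 and 4.12. Of all genes 0.0% were called in each over the 22 libraries, and 3.55% in WT and 1.74% in KD over the 17.

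The score of this list, the mean log2 CPM of its 15 genes, was 5.06 in library 2 and 4.46 in library 12, and 0.57, 0.83 and 1.88 in libraries 31B, 35A and 9. Cldn2 followed the score with a Spearman rho of 0.942 and a Pearson r of 0.988 over the 22 libraries, and within 1 housing with rho of 0.804 over the 12 SH libraries and 0.988 over the 10 EE libraries. For Cldn1 rho was 0.772 in all, 0.427 in SH and 0.903 in EE, for Cldn9 0.798, 0.493 and 0.906, and for Cldn3 0.714, 0.524 and 0.83. For Cldn5, Cldn10, Cldn11 and Cldn12 rho over the 22 libraries lay between −0.246 and 0.164. Within the SH libraries, though, rho was 0.497 for Cldn11 (r 0.685) and 0.392 for Cldn5 (r 0.507), no lower than or close to those of Cldn1 and Cldn9, and within the EE libraries it was 0.309 and 0.382. For Cldn10 and Cldn12 it lay between −0.00606 and 0.0979 within either housing. These correlations are descriptions over libraries that share their depth and scaling with the score.

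**Figure D3:**
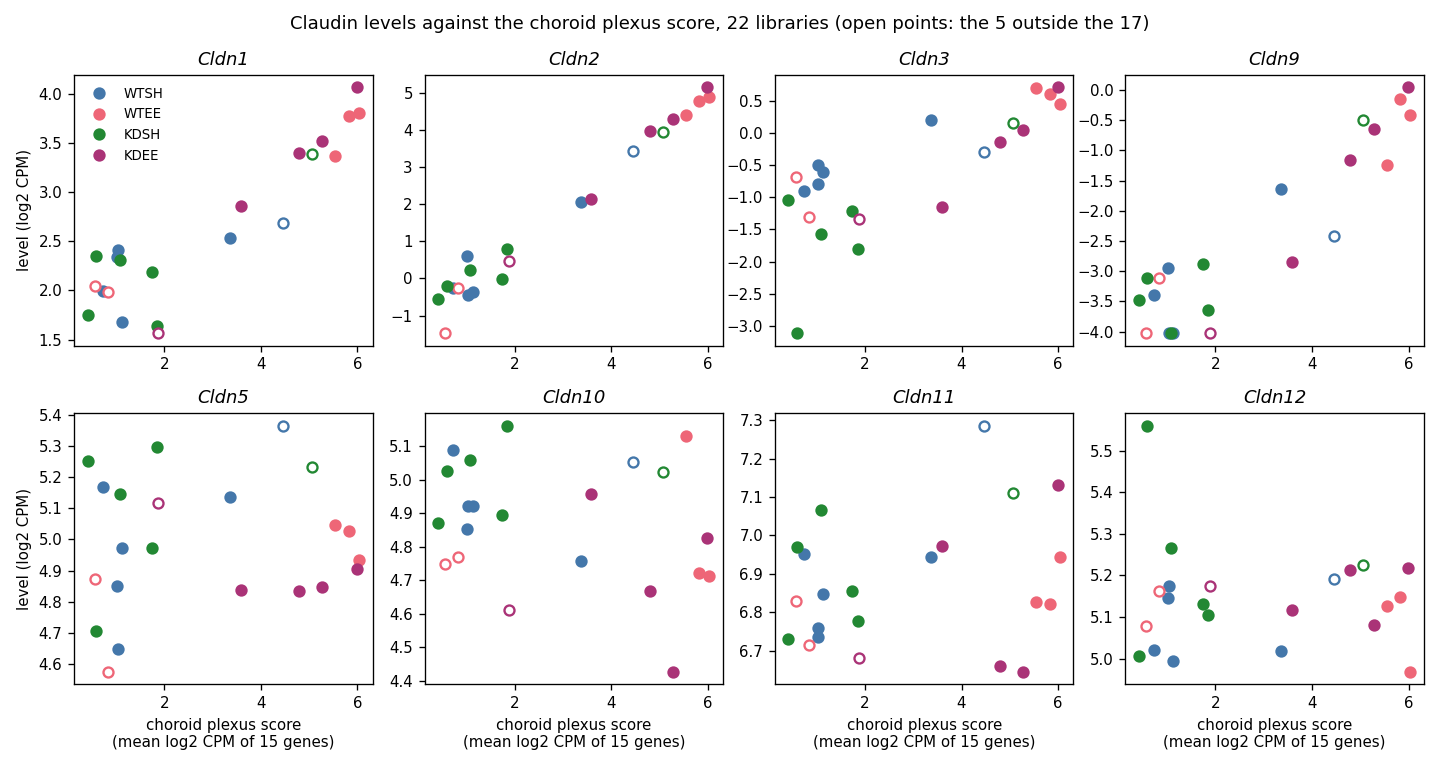
Level of each claudin in log2 CPM (y axis) against the choroid plexus score of the same library (x axis, mean log2 CPM of 15 genes), colored by group, with open points for the 5 libraries outside the 17. Cldn2 lies close to 1 line in all 4 groups (rho 0.942), Cldn1, Cldn3 and Cldn9 rise mainly where the score is high, and in the lower row rho lies between −0.246 and 0.164.

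With the score as a covariate in the fit of the 22 libraries, the housing difference of Cldn2 over both genotypes was −0.04 ± 0.14 on the log2 scale. It was 0.13 ± 0.15 for Cldn1, −0.02 ± 0.24 for Cldn3 and −0.15 ± 0.40 for Cldn9. For the abundant claudins it was −0.28 ± 0.09 for Cldn5 (adjusted p = 0.138), −0.23 ± 0.07 for Cldn10 (adjusted p = 0.144), −0.19 ± 0.07 for Cldn11 (adjusted p = 0.171) and −0.02 ± 0.06 for Cldn12, and none was called. The score differs between the housings as the claudins do, and over the 17 libraries it separates them (at most 3.37 in SH and at least 3.59 in EE). The same fit there gave Cldn2 at 0.13 ± 0.39 and Cldn9 at −1.42 ± 1.19. What set the level of the markers in a library was not tested.

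Leptomeninges markers, and some of the ependyma markers, were also higher in EE. The ependyma list (6 genes, led by Foxj1, Tmem212 and Ccdc153) summed to 23.1 to 27.9 CPM in WT SH, 17.5 to 42.4 in WT EE, 20.7 to 40.5 in KD SH and 20.7 to 37.9 in KD EE. Of its 6 genes 4 were higher in EE in each genotype, with 0 called over the 22 libraries and 4 over the 17 in both genotypes together, where 1 was called lower in KD. Tmem212 and Ccdc153 reached 3.65 and 7.78 CPM in KD SH but only 2.07 and 5.11 CPM in KD EE. The leptomeninges list (9 genes, led by the collagens Col1a1 and Col1a2 and by Dcn) summed to 92.1 to 124, 78.4 to 187, 68.7 to 146 and 87.2 to 159 CPM in the same order, and all 9 were higher in EE in both genotypes, at medians of 0.67 and 0.42 on the log2 scale, with 0 called over the 22 libraries. Of the 9, 8 were called over both genotypes in the 17 libraries, 7 in WT and 3 in KD. Of all genes 3.85%, 3.55% and 1.74% were called in these comparisons. Some of these genes are also expressed by choroid plexus tissue, so the 3 lists are not separate measures.

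For the cell types of the abundant claudins the lists were steadier. The brain endothelium list (10 genes, led by Pecam1, Cdh5 and Flt1) summed to 251 to 296 CPM in WT SH, 269 to 316 in WT EE, 259 to 292 in KD SH and 253 to 338 in KD EE, with a median log2 difference of 0.03 over both genotypes. The list of oligodendrocytes and myelin (10 genes, with Mbp and Mobp among them) summed to 5400 to 7070, 4990 to 5480, 5190 to 6720 and 4780 to 5890 CPM, and 0 of 10 were higher in EE over both genotypes, at a median of −0.19. Astrocyte markers (9 genes, led by Aqp4, Gfap and Aldh1l1) and neuron markers (8 genes) had medians of −0.06 over both genotypes. No marker of these 4 lists was called over the 22 libraries in EE against SH over both genotypes, in WT or in KD. Of all genes 0.146%, 0.0% and 0.0% were called there. As 0 of the 15 choroid plexus markers were called either, the lack of calls does not set these lists apart. In the 17 libraries 1 marker of oligodendrocytes and myelin was called lower in KD and 1 neuron marker lower in WT. There 1.74% of all genes were called in KD and 3.55% in WT.

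The likeness of each claudin to other genes, as Spearman rho of log2 CPM over the 22 libraries, set the same 4 apart. The median rho with the 15 choroid plexus markers was 0.919 for Cldn2, 0.815 for Cldn9, 0.789 for Cldn1 and 0.726 for Cldn3, with medians over all genes between −0.0243 and −0.00169. Their medians were also high with the ependyma list (0.566 to 0.652) and the leptomeninges list (0.434 to 0.624), so the likeness was not to choroid plexus markers alone. Among themselves these 4 had rho between 0.68 (Cldn2 and Cldn3) and 0.877 (Cldn1 and Cldn9). With the mean of each group taken out of the values, the medians with the choroid plexus markers were 0.936 for Cldn2, 0.856 for Cldn9, 0.855 for Cldn1 and 0.808 for Cldn3, so the likeness of these 4 did not rest on the difference between groups. The medians of Cldn11 and Cldn5 with these markers rose as well, from 0.155 to 0.397 and from 0.0954 to 0.293. Those of Cldn10 and Cldn12 were 0.0322 and −0.0356.

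Cldn11 was most like the list of oligodendrocytes and myelin, at a median rho of 0.577 over 22 libraries (0.559 with group means taken out). Cldn10 had a median of 0.579 with the same list and 0.276 with the astrocyte list, and its rho with Cldn11 was 0.516. With group means taken out the first fell to 0.268, and the median with astrocytes was 0.296. Cldn5 had a median rho of 0.0683 with the brain endothelium markers, the cell type it is known for, and 0.336 with oligodendrocytes and myelin. The coefficient of variation of Cldn5 over the libraries was 14.6%, and the summed endothelial markers ranged from 251 to 338 CPM. The median of Cldn12 that lay farthest from 0 was with the neuron markers, at −0.464.

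**Figure D4:**
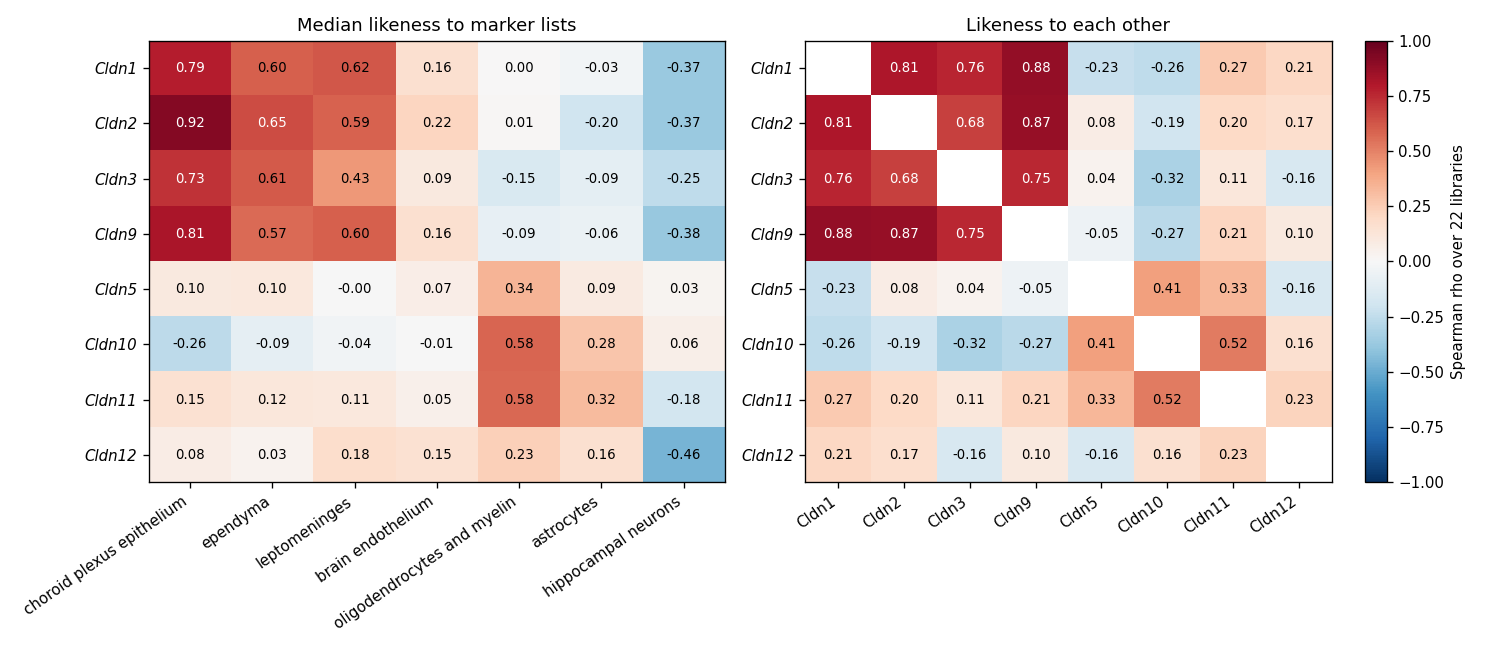
Spearman rho over the 22 libraries, as the median over the genes of each marker list (left) and between the claudins (right), on a scale from −1 (blue) to 1 (red). Cldn1, Cldn2, Cldn3 and Cldn9 are alike and like the choroid plexus markers (0.73 to 0.92), with lower values for ependyma and leptomeninges (0.43 to 0.65). Cldn10 and Cldn11 share values near 0.58 with oligodendrocytes and myelin.

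Over all 18482 genes, the 5 most like Cldn2 were Glb1l2, Slc2a12, Calml4, Krt18 and Otx2 (rho 0.963 to 0.946), of which Calml4 and Otx2 are on the choroid plexus list. Those most like Cldn1 were Htr2c, a serotonin receptor abundant in choroid plexus, Fap, Elovl7, Perp and Vat1l (0.945 to 0.921). Those most like Cldn9 were Slc4a2, Ppp1r3b, F11r, Tbc1d9 and Arhgef5 (0.911 to 0.893), and F11r, which encodes junctional adhesion molecule A, is a tight junction gene itself. For Cldn3 they were Rhod, Scube3, Sod3, Myo7a and Efs (0.903 to 0.871).

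For the abundant claudins the highest rho lay between 0.811 and 0.889, against 0.903 to 0.963 for the other 4. For Cldn11 they were Carhsp1, Desi1, Mal, Tmem60 and Cnp (0.889 to 0.81), of which Mal and Cnp, 2 myelin genes, are on the list of oligodendrocytes and myelin. For Cldn10 they were Vamp3, Lap3, Asrgl1, Ttyh1 and Gstm5 (0.844 to 0.826), and for Cldn12 Cgrrf1, Cdh19, Tyw5, Arl6 and Osbpl1a (0.836 to 0.766). For Cldn5 they were Gtf3a, Snrpb, Fndc10, Prmt1 and Psmg4 (0.811 to 0.762), none of them a gene of the endothelium list. Among the 17 libraries all 40 of these pairs remained within the 100 genes most like the claudin, and 36 of 40 did with Pearson r or with group means taken out.

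Other genes of the tight junction were read from a list of 47, of which 46 were found in the files and 31 passed the filter on low counts. The list held the other claudins, of which Cldn14, Cldn19, Cldn20, Cldn23 and Cldn34c1 passed, with medians between 0.276 and 1.78 CPM. Over the 22 libraries 0 of 31 were called by edgeR in EE against SH over both genotypes, 13 had an unadjusted p under 0.05 (16.1% of all genes), 10 of them higher in EE, and DESeq2 called 2, Cgnl1 and Lsr (1.14% of all genes). The median log2 difference of the 31 was 0.05. In the 17 libraries 11 of 31 were called over both genotypes (3.85% of all genes), 9 in WT (3.55%) and 4 in KD (1.74%), all higher in EE.

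Cgnl1, which encodes paracingulin, a cytoplasmic adaptor of epithelial junctions, had the lowest adjusted p of the junction genes named here over both genotypes. Its mean was 19.2 ± 6.15 CPM in WT SH (SD, n = 6), 40.3 ± 21.0 in WT EE (n = 5), 18.3 ± 8.58 in KD SH (n = 6) and 35.8 ± 13.6 in KD EE (n = 5). The log2 difference over both genotypes was 1.03 ± 0.23 over the 22 libraries (adjusted p = 0.05004) and 1.56 ± 0.12 over the 17 (adjusted p = 8.99e-09). With the choroid plexus score in the fit it was 0.31 ± 0.10 (adjusted p = 0.141).

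The other genes called over the 17 libraries were Tjp3 (zonula occludens 3) at 1.72 ± 0.22 on the log2 scale, F11r at 0.74 ± 0.10, Marveld3 at 2.33 ± 0.37, Crb3, a polarity protein, at 1.1 ± 0.19, Cgn (cingulin) at 0.46 ± 0.10, Ocln (occludin) at 0.40 ± 0.09, Patj at 0.48 ± 0.11, Lsr at 0.63 ± 0.16, Igsf5 at 1.13 ± 0.28, and Pard6b, which the naming rule does not include and which was named after its values were seen. Over the 22 libraries the same differences were 1.0 for Tjp3, 0.43 for F11r, 1.34 for Marveld3, 0.66 for Crb3, 0.31 for Cgn, 0.26 for Ocln, −0.06 for Patj, 0.47 for Lsr and 0.62 for Igsf5. Patj changed sign with library 12 (WT SH), which held its highest level, 31.2 CPM, against a median of 6.77 CPM over all libraries. With the choroid plexus score in the fit of the 22 libraries the 9 lay between −0.49 and 0.21, and none was called.

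Tjp1, Esam and Marveld2 were called over neither the 22 nor the 17 libraries. Tjp1 (zonula occludens 1), which links claudins to actin in most junctions, was 117 ± 8.68 CPM in WT SH and 118 ± 21.2 CPM in WT EE, with a log2 difference over both genotypes of 0.03 ± 0.06. Esam, an adhesion molecule of endothelial cells, was 11.6 ± 1.58 and 12.2 ± 0.183 CPM in the same groups, with a difference of 0.06 ± 0.07. Marveld2 (tricellulin), found where 3 cells meet, differed by 0.29 ± 0.18 over the 22 libraries and 0.56 ± 0.17 over the 17 (adjusted p = 0.0602), and was not called.

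Libraries of EE mice carry codes with and without a letter, and all SH libraries have codes without one. The labels do not say what the letter means. Without the lettered libraries (12 SH, 5 EE) the differences over both genotypes were 2.10 ± 0.65 for Cldn2, 0.89 ± 0.25 for Cldn1, 0.82 ± 0.36 for Cldn3 and 1.78 ± 0.78 for Cldn9 on the log2 scale. Of the 8 claudins 0 were called in this comparison, where 80 of 19153 genes were. The lettered libraries alone hold no SH library and give no value.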

How the data were processed

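Poly-A RNA of whole mouse hippocampus was sequenced (TruSeq v2, paired-end, strand not kept), and the deposited files hold raw read counts per gene symbol and library, made by the authors with STAR 2.5 and HTSeq on GRCm38 per the labels' processing notes and the study's methods. Reads counted outside genes or to more than 1 gene made up 14.0% to 18.6% of each of the 22 libraries and stayed out of library sizes. No pair of libraries was identical. The floor of 3 counts allows for counting error alone, as no molecular identifiers were used. The 8 claudins, the gene lists and the tests were chosen with earlier results of these data known.

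Genes were kept with filterByExpr (minimum count 10, minimum total 15), scaled by TMM and tested with edgeR 4.0.16 (quasi-likelihood, 1 fit of 4 group means, R 4.3.3), with Benjamini-Hochberg adjustment over all genes tested. CPM used the same scaling, and log2 CPM a prior count of 2. A call asked for an adjusted p of 0.05 or less and 1.3-fold (0.38 on the log2 scale). DESeq2 1.42.0 was an alternative, and the fit was tested on simulated data. Other junction genes were named when called over the 22 or 17 libraries (up to 10 by adjusted p), together with Ocln, Tjp1, Cgn, Cgnl1, F11r, Esam and Marveld2. For each claudin the 5 genes with the highest rho were named, and of each marker list the first 3 genes, of which 1 is not reported here. Gene positions and exon lengths came from the GENCODE M21 annotation of GRCm38 and promoters from RefSeq, where 7 of the 8 claudins matched.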

Additional observations from a re-analysis of the deposited data

Results flagged for a closer look

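In 8 of 32 combinations of a claudin and a group, 1 library lay apart from the others of its group, by a gap divided by the range of the group that passed Dixon's 95% critical value. Chance gives such a gap in about 1 in 20 groups of independent, normally distributed values. The ratios were taken on CPM, which need not be normal, all 8 were the highest library of their group, and the 32 share libraries. The rate to compare with the 8 is therefore not known. Library 2 (KD SH) lay apart, as the highest of its group, for 4 claudins, with a ratio of 0.728 for Cldn1 (10.4 CPM), 0.929 for Cldn2 (15.2 CPM), 0.63 for Cldn3 (1.05 CPM) and 0.886 for Cldn9 (0.65 CPM). Its choroid plexus score, 5.06, was also the highest of the SH libraries. Library 12 (WT SH) lay apart for Cldn2 at a ratio of 0.662 (10.8 CPM) and for Cldn11 at 0.65 (156 CPM), and it had the second highest score of the SH libraries, 4.46. Library 9 (KD EE) was the highest for Cldn5 at 0.769 (34.6 CPM), and library 17 (WT EE) the highest for Cldn10 at 0.88 (34.9 CPM). Libraries 2, 9 and 12 are among the 5 that the study removed, and library 17 is not.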

How the results depend on the processing

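Of 480 single-gene values under alternatives other than leaving out 1 library, 392 kept their direction and side of the threshold, 28 came to pass it, 24 changed sign by less than 1 SE, and 36 changed sign by more or after a call. With 1 library left out, 1271 of 1342 did not change, 17 came to pass, 49 changed sign by less than 1 SE and 5 by more. The causes of these changes were not tested. The claudins called over both genotypes, 0 over the 22 libraries, numbered 4 over the 17 and 2 (Cldn1, Cldn2) without a filter on low counts, and 0 to 4 with 1 library left out. They were 4 without library 2, 2 without 31B or 35A (Cldn1, Cldn2), and 1 without 9 (Cldn1) or 12 (Cldn2). Of all genes, 27 of 18482 were called over the 22 libraries, 278 of 18391 without library 2, 287 of 18632 without 31B, 222 of 18614 without 35A, 150 of 18670 without 9, 175 of 18468 without 12 and 209 of 35346 without the filter. Over the 17 libraries the claudins called numbered 3 in WT, where 664 of 18701 genes were called, and 4 in KD, where 325 were. The junction genes called over both genotypes numbered 11 over the 17 libraries, 2 by DESeq2, 1 (Cgnl1) with all 24 libraries, without lettered libraries, with DESeq2 size factors and without the filter, and 0 to 1 with 1 library left out (Cgnl1, without 2, 6, 7, 9, 12, 31B or 35A). The same comparison called 720 of 18701 genes over the 17 libraries, 211 of 18482 by DESeq2 and 90 of 18287 with all 24 libraries. It called 80 of 19153 genes without lettered libraries and 44 of 18482 with DESeq2 size factors. Without library 6 it called 90 of 18406 genes, and without library 7 it called 99 of 18689. Fits of only the groups compared tested 7 of 8 claudins where Cldn9 did not pass the filter.

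With the choroid plexus score in the fit, log2 differences that changed sign were −0.16 (Cldn2), −0.23 (Cldn3) and −0.043 (Cldn9) in WT, −0.26 (Cldn9) in KD, and −0.041 (Cldn2), −0.021 (Cldn3), −0.15 (Cldn9), −0.32 (Tjp3), −0.17 (Marveld3), −0.0199 (Crb3), −0.0196 (Igsf5) and −0.0035 (Marveld2) over both genotypes. With the score over the 17 libraries, chosen after seeing the data, they were −0.74 (Cldn3), −1.72 (Cldn9) and 0.25 (Cldn10) in WT, −1.12 (Cldn9) and 0.047 (Cldn12) in KD, and −0.35 (Cldn3), −1.42 (Cldn9), 0.11 (Cldn10), 0.090 (Cldn12), −0.63 (Tjp3), −0.345 (Crb3), −0.39 (Lsr), −0.34 (Esam), −0.075 (Tjp1), −0.0041 (Cgn) and 0.13 (Patj) over both, where the junction genes are not among the 480. Over the 17 libraries alone they were 0.036 (Cldn5) and 0.015 (Cldn11) in WT, 0.67 (Cldn9) for WT SH against KD SH, 0.15 (Cldn5) for WT EE against KD EE, and 0.48 (Patj) and −0.063 (Tjp1) over both. Without lettered libraries they were 0.0032 (Cldn5) and 0.0059 (Cldn10) in WT, 0.72 (Cldn1), 1.65 (Cldn2), 0.11 (Cldn5) and 1.46 (Cldn9) for WT EE against KD EE, 0.82 (Cldn1) and 0.71 (Cldn3) in the interaction, and −0.072 (Tjp1) over both. With 1 library left out, the difference of WT SH against KD SH ranged from −1.29 to 1.47 (Cldn2) and −1.86 to 0.87 (Cldn9), the interaction from −1.48 to 1.28 (Cldn2) and −1.20 to 1.54 (Cldn9), each changing sign without library 2, and Patj over both genotypes from −0.13 to 0.30, changing sign without library 12. None of the genotype values passed the threshold.

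No paired analysis was possible because the groups share no library codes. Counts limited Cldn9 and Cldn3, and groups of 5 or 6 libraries with 120-fold spread limited Cldn2.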

Other observations

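Libraries 33B and 34B, left out above, differed in what they can show. Library 33B (WT EE) held 18667300 gene counts, with Cldn2 at 11.1 CPM, Cldn1 at 5.44 CPM, Cldn3 at 0.653 CPM and Cldn9 at 0.0726 CPM, and with Cldn5 at 27.6, Cldn10 at 27.9, Cldn11 at 110 and Cldn12 at 31.9 CPM. Library 34B (KD EE) held 16442 gene counts, with 4 counts on Cldn11, 1 on Cldn5 and 0 on the other 6 claudins, so that no level can be read from it.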
